A study of Mus musculus with 16 samples.

Results

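The Z-disc genes described here are 9 genes of the cardiac sarcomere: Actn2, Ldb3, Myoz2, Tcap, Csrp3, Nexn, Flnc, Nebl and Pdlim5. Their members in the data are the ChIP-seq peaks that the deposited lists assign to these gene symbols, which is to the nearest annotated gene start. They held 108 H3K27Ac peaks and 1 lamin A/C peak. Merged across libraries, the H3K27Ac peaks formed 38 sites of 18277 in all, at 9 of the 11472 genes with a peak in any list.

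Chromatin came from primary cardiomyocytes of mice aged 3 months, freed from the heart by perfusing it with enzymes. The 4 groups were wild-type mice (Des+/+) and mice lacking desmin in every cell (Des-/-), each either kept under basal conditions or put through swimming exercise as a muscular stress (swim). Each group gave 1 library with an antibody to H3K27Ac, a histone mark of active promoters and enhancers, and 1 with an antibody to the nuclear lamina proteins lamin A/C, each beside its own input, and each library pooled chromatin from several mice. With 1 library per group no difference has a replicate check, no p-value is given, and intervals cover counting error only.

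The Z-disc is the protein plate at each end of the sarcomere, in which actin filaments of neighbouring sarcomeres are cross-linked by alpha-actinin and to which titin is anchored. Desmin filaments surround the Z-discs and tie adjacent myofibrils to each other, to the cell membrane and to the nucleus. Mutations in several Z-disc genes cause dilated or hypertrophic cardiomyopathy.

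H3K27Ac peaks at the Z-disc genes, counted as listed, were fewest in Des-/- swim. The Des+/+ libraries held 33 before and 32 after swimming, and the Des-/- libraries 31 before and 12 after. Read from here on in the order Des+/+ basal, Des-/- basal, Des+/+ swim, Des-/- swim, they covered 38.1, 37.5, 37.9 and 12.3 kb. Whole lists held 15757, 16638, 11157 and 10407 peaks, so the Z-disc genes took 0.209%, 0.186%, 0.287% and 0.115% of them. When the 10407 highest peaks of each list were taken, which sets the lowest height at 19, 20, 15 and 15 reads, the Z-disc genes held 19, 13, 27 and 12 peaks. The 2 Des-/- libraries were then within 1 peak of each other and Des+/+ swim was the highest. How the basal counts stand to the swim counts thus depends on how deep each list goes. Des-/- stayed below Des+/+ both before and after swimming. The height of a peak is the largest number of reads stacked at a position, and the lists keep heights of 15 reads or more. The median height at the Z-disc genes was 19, 18, 19 and 17.5 reads, so many of their peaks stood close to that minimum. Among the genes with a Des+/+ swim peak, 6 of the 8 Z-disc genes had fewer peaks in Des-/- swim, against 31.8% of all 7166 such genes. Actn2 was the 1 of the 8 with no Des-/- swim peak, against 17.6% of all. The 8 genes held 32 of the 11157 Des+/+ swim peaks, more per gene than the 7166 genes. Neither share of all is thus of genes with like numbers of peaks.

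**Figure D1:**
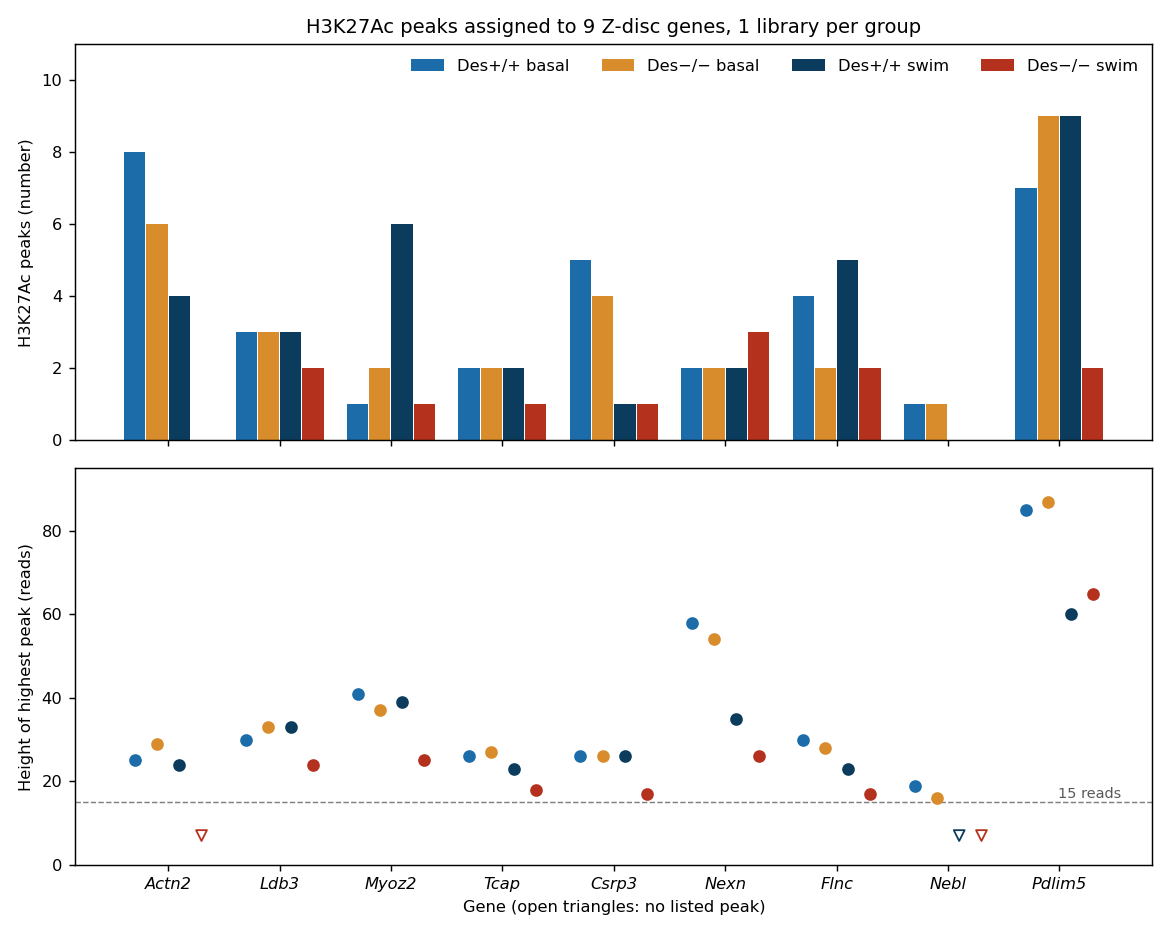
Number of H3K27Ac peaks (top, bars from 0) and height of the highest peak in reads (bottom, points) for each of the 9 genes in the 4 groups, 1 library each, with open triangles where no peak is listed and a dashed line at the list minimum of 15 reads. Actn2 and Nebl have no Des-/- swim peak, and Nexn is the gene with more peaks in Des-/- swim (3) than in Des+/+ swim (2).

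Sequences are shown for Actn2, which had no peak in Des-/- swim, and for Myoz2, Ldb3 and Csrp3, at each of which 1 promoter peak was at least 1.5-fold lower there at scaled heights. Each promoter is the stretch of 250 bases before a RefSeq transcript start, read 5′ to 3′ along the gene on GRCm38.p6, and the last is 201 bases of the plus strand around the summit of the highest Actn2 peak in Des+/+ swim. GENCODE places the Actn2 and Myoz2 starts slightly farther upstream, so the last bases of these windows lie in its first exon. Capitals mark matches on either strand to the CArG box of SRF, the MEF2 site, the GATA core GATAA, the TEAD core CATTCC or the E-box CANNTG.
Actn2 promoter, chr13:12340733-12340982, minus strand: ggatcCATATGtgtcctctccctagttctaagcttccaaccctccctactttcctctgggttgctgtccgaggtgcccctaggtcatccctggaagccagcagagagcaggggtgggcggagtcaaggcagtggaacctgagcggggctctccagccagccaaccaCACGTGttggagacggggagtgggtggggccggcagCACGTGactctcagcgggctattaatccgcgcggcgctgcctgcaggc
Myoz2 promoter, chr3:123034988-123035237, minus strand: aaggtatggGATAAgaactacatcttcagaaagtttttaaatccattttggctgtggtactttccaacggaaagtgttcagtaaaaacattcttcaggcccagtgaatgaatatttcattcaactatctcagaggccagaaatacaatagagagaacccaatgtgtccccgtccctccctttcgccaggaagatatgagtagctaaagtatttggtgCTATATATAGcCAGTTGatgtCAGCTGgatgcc
Ldb3 promoter, chr14:34588682-34588931, minus strand: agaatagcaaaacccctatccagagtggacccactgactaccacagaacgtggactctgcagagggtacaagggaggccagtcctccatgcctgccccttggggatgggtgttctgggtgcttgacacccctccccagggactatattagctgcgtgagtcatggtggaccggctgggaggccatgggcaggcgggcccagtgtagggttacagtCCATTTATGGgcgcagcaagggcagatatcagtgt
Csrp3 promoter, chr7:48848052-48848301, minus strand: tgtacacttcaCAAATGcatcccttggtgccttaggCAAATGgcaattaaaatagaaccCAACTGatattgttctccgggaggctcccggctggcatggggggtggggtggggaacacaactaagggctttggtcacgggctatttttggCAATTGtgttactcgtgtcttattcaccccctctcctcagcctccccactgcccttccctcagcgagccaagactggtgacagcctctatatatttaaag
Actn2 intron 12 summit, chr13:12284530-12284730, plus strand: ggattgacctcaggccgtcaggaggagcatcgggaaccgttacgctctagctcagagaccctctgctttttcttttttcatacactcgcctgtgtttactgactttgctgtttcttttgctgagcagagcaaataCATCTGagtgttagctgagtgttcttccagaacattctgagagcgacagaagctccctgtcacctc

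RefSeq promoters were at hand for 7 of the 9 genes, in 14 windows, several of which overlap. A CArG box was found in 3 of the 14 windows, 2 at Ldb3 that hold the same match and 1 at Nebl, against 1.47% of 32851 promoters. The Ldb3 match lies 35 bases before the start shown. A MEF2 site was found in 1 window, 33 bases before the Myoz2 start and overlapped by no other match, against 2.92% of promoters. GATAA was in 3 windows (22.6% of promoters), CATTCC in 2 (12.6%) and the E-box in 7 (66.2%). The Actn2 promoter held 3 E-boxes and no match to the other motifs. The H3K27Ac peaks at the Actn2 start lay downstream of it, and the promoter window itself was touched by a peak in Des+/+ basal alone. None of the 32 Z-disc summit windows of Des+/+ swim held a CArG box or a MEF2 site, against 0.574% and 0.825% of all 11157 such windows. In those 32, GATAA was in 3 (12% of all), CATTCC in 3 (8.42%) and the E-box in 22 (49.4%).

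Actn2 encodes alpha-actinin 2, which cross-links the actin filaments and is the main structural protein of the Z-disc. Its H3K27Ac peaks numbered 8 in Des+/+ and 6 in Des-/- hearts before swimming, and 4 in Des+/+ and none in Des-/- hearts after it. The site at its start (chromosome 13, 12338034 to 12340749) reached 25 reads in wild-type and 29 in desmin-null cells before swimming, and 23 in wild-type cells after it. The 3 heights differed by less than their counting error, and the site was missing from the Des-/- swim list. Just downstream in the first intron, the site from 12336801 to 12337895 reached 20, 20 and 19 reads in the same groups. A further site in that intron (12322388 to 12323290) reached 21, 19 and 17 reads. In intron 12 of 20 (12284037 to 12285128), the peak had 19 reads in Des+/+ basal and 24 in Des+/+ swim (95% Poisson interval 15.4 to 35.7) and was listed in neither Des-/- library. Close beside it lay a separate Des-/- basal peak of 15 reads, from 12283461 to 12283876. Including that peak, the other 4 Actn2 sites were listed in basal libraries only, at 15 to 19 reads.

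Ldb3 encodes cypher, a PDZ and LIM domain protein that binds alpha-actinin. Its promoter carried a peak on each side of the start in every group. The upstream peak (chromosome 14, 34588725 to 34589967) reached 30, 27, 33 and 24 reads. The downstream peak (34587060 to 34588659) reached 29, 33, 27 and 22 reads. Des-/- swim was the lowest of the 4 at both. An intronic peak of 18 reads, 2.6 kb inside the gene, was listed in Des+/+ swim alone, and another at 14.8 kb was listed in the basal libraries alone, at 23 reads in Des+/+ and 15 in Des-/-.

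Myoz2 encodes calsarcin-1, which binds alpha-actinin and calcineurin at the Z-disc. It had 1, 2, 6 and 1 peaks, the most in wild-type cells after swimming. The promoter peak (chromosome 3, 123033580 to 123034989) reached 41, 37, 39 and 25 reads. The other 5 Des+/+ swim peaks stood at 15 to 19 reads, on both sides of the promoter peak, from 0.4 kb upstream of the start to 6.0 kb inside the gene. Of these 5, the site at 4.0 kb was listed in Des-/- basal too, at 17 reads in both libraries, and the others were listed in Des+/+ swim alone. The acetylated stretch of Myoz2 thus covered 1.04, 2.16, 5.54 and 0.85 kb.

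Pdlim5 encodes ENH, another PDZ and LIM domain protein of the Z-disc. It had 7, 9, 9 and 2 peaks. Its promoter (chromosome 3, 142393214 to 142396576) was the highest of all the Z-disc sites, with 85, 87, 60 and 65 reads over inputs of 2, 4, 3 and 12 reads. It was the only 1 of the 9 sites listed in all groups at which Des-/- swim was not below Des+/+ swim. A distal site, with its summit at -44.2 kb from the start (142439066 to 142443539), was also listed in every group, at 23, 26, 18 and 15 reads. Inside the gene, the sites at 4.7 kb (21, 19 and 20 reads) and 6.0 kb (17, 20 and 19 reads) were in every list except Des-/- swim.

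**Figure D2:**
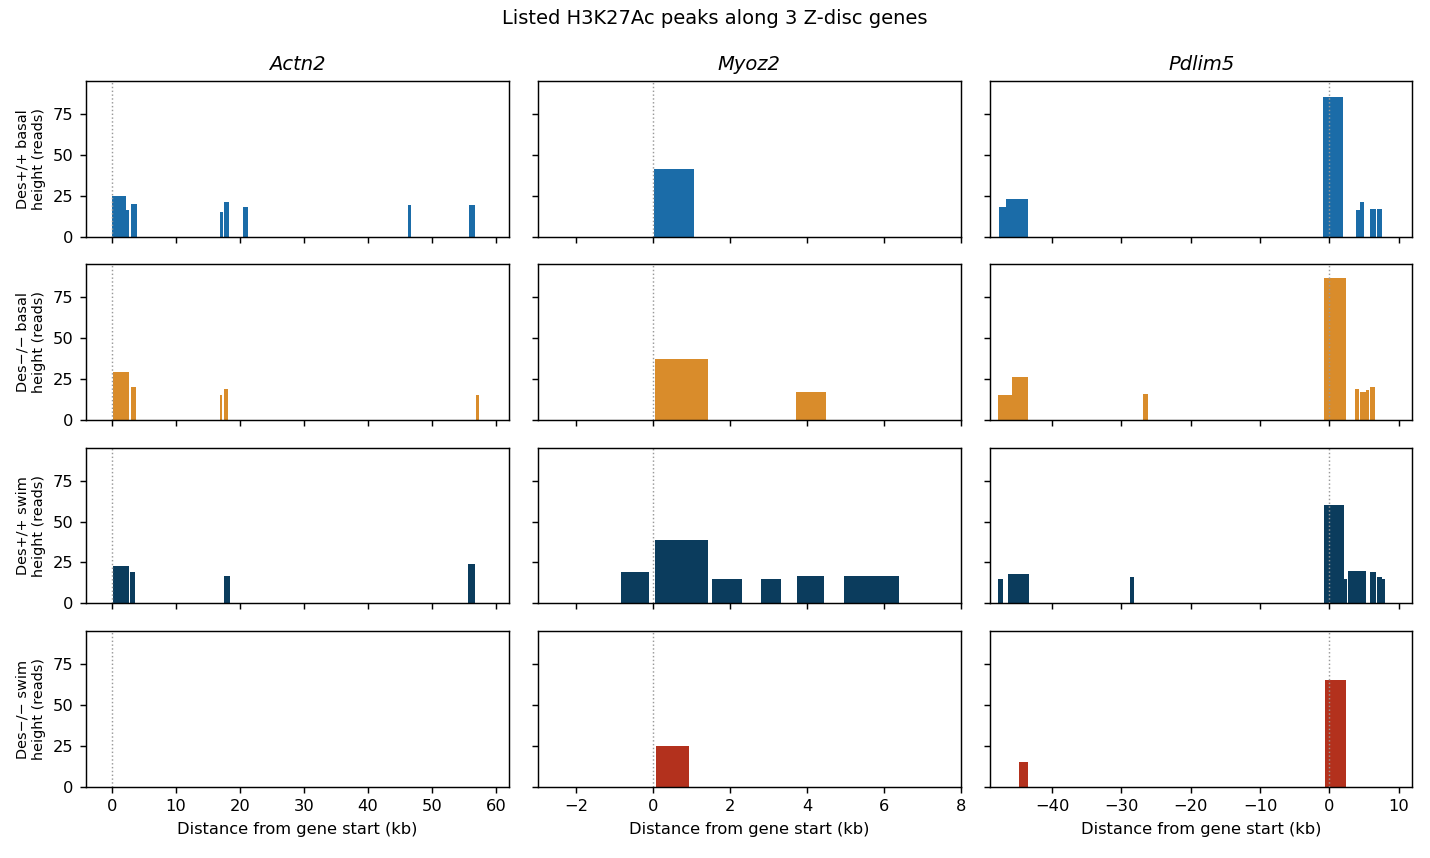
H3K27Ac peaks along Actn2, Myoz2 and Pdlim5 by distance in kb from the gene start, along the direction of transcription (x axis), with bars spanning each listed peak and reaching its height in reads (y axis), and 1 row of panels per group. The Des-/- swim row is empty at Actn2, holds the promoter peak alone at Myoz2 (25 reads), and holds the promoter (65 reads) and the distal site (15 reads) at Pdlim5.

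Csrp3 encodes muscle LIM protein, a Z-disc partner of telethonin and alpha-actinin. Its peaks numbered 5 and 4 before swimming and 1 in each swim library, so the count was lower after swimming in both genotypes. The site at the start (chromosome 7, 48846130 to 48848184) reached 26 reads in each library but Des-/- swim, where it reached 17 (95% Poisson interval 9.9 to 27.2).

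Tcap encodes telethonin, which joins titin molecules at the Z-disc edge, and the whole gene spans 1.1 kb. It had 2 peaks in each group but Des-/- swim, where it had 1. The site over the gene (chromosome 11, 98382923 to 98385459) reached 26, 27, 23 and 18 reads, the highest of its peaks in each group. At the summits 0.26, 0.22, 0.2 and 0.19 kb before the start the heights were 16, 27, 19 and 18 reads. In Des-/- swim what was listed was a stretch of 0.3 kb just before the start, while the part over the gene body, at 23 reads in Des+/+ swim, was not listed.

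Nexn encodes nexilin, an actin-binding protein of the Z-disc region, and Flnc encodes filamin C, an actin cross-linker that links the Z-disc to the membrane. The broad Nexn promoter site (chromosome 3, 152261407 to 152266662) reached 58, 54, 35 and 26 reads, lower in both swim libraries than in both basal ones. It was split into 2, 2, 2 and 3 peaks, so the higher count in Des-/- swim came with less covered length, 2.42 kb against 3.9 kb in Des+/+ swim. The Flnc promoter site (chromosome 6, 29432776 to 29436779) reached 30, 28, 23 and 17 reads, the highest of its peaks in each group. Both swim libraries had a peak of 17 reads 0.22 kb inside the gene. The 23 reads were of another Des+/+ swim peak at 0.88 kb. Upstream of Flnc, the site at 1.3 kb held 18, 18 and 19 reads and the site at 1.8 kb held 16 reads in Des+/+ basal and 20 in Des+/+ swim, and neither was listed in Des-/- swim.

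Nebl encodes nebulette, a short relative of nebulin that anchors actin at the cardiac Z-disc. It had 1 peak in each basal library, of 19 reads in Des+/+ and 16 in Des-/-, and none in either swim library. The site (chromosome 2, 17459750 to 17460776) lies 271.1 kb inside the gene, at the start of a shorter transcript.

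Of 26 Z-disc sites with a Des+/+ swim peak, 17 had no Des-/- swim peak, against 26.1% of all 9609 such sites. The reverse was found at 0 Z-disc sites. The 17 sites fell at 5 genes, with 5 each at Myoz2 and Pdlim5, 4 at Actn2, 2 at Flnc and 1 at Ldb3. All 17 had Des+/+ swim heights of 15 to 24 reads. By annotation 10 were intronic, 4 in promoters, 2 distal intergenic and 1 in a 3′ UTR. By distance, 12 of the 17 lay within 3 kb of an annotated start. Before swimming, 6 of the 17 were listed in both genotypes, 4 in a basal library of 1 genotype, and 7 in neither. The 7 seen in Des+/+ swim alone made up 18.4% of the 38 Z-disc sites, against 2.53% of all 18277 sites. Sites listed in all 4 groups made up 23.7% of the Z-disc sites and 37.7% of all.

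A site without a listed peak is not a site without signal: its height was under 15 reads or it failed the authors' false discovery rate of 0.001. Of the 17 sites, 4 lay within 1 kb of a Des-/- swim peak and 13 farther away.

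Counted by peak, 20 of the 32 Des+/+ swim peaks at Z-disc genes (62.5%) overlapped no Des-/- swim peak, against 27% of all Des+/+ swim peaks. In the other direction 1 of 12 Des-/- swim peaks had no Des+/+ swim partner, against 22.2%. In the basal libraries 7 of 33 Des+/+ peaks had no Des-/- partner (14.5% of all) and 5 of 31 Des-/- peaks had no Des+/+ partner (19.7%). With equal numbers of highest peaks, the basal counts became 6 of 19 in Des+/+ (15% of all) and 2 of 13 in Des-/- (15.7%). The swim counts became 16 of 27 in Des+/+ (24.6% of all) and 1 of 12 in Des-/- (24.5%). A share of Des+/+ peaks above that of all peaks was thus also found before swimming. Peaks without a partner were mostly low ones in the lists of both genotypes, so the Z-disc peaks were also read against peaks of their own height. In Des+/+ swim, 9 of 11 Z-disc peaks of 15 to 17 reads had no partner, against 53.7% of all peaks of that height. At 18 to 20 reads it was 8 of 11 against 33.1%, and at 21 to 25 reads 3 of 4 against 15.6%. All 6 Z-disc peaks above 25 reads had a partner, and of all peaks 2.65% at 26 to 40 reads and 0.48% above that had none. In Des+/+ basal, 3 of 10 Z-disc peaks of 15 to 17 reads had no Des-/- basal partner, against 39.9% of all. At 18 to 20 reads it was 4 of 8 against 19.7%, and every higher Z-disc peak of Des+/+ basal had a partner.

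**Figure D3:**
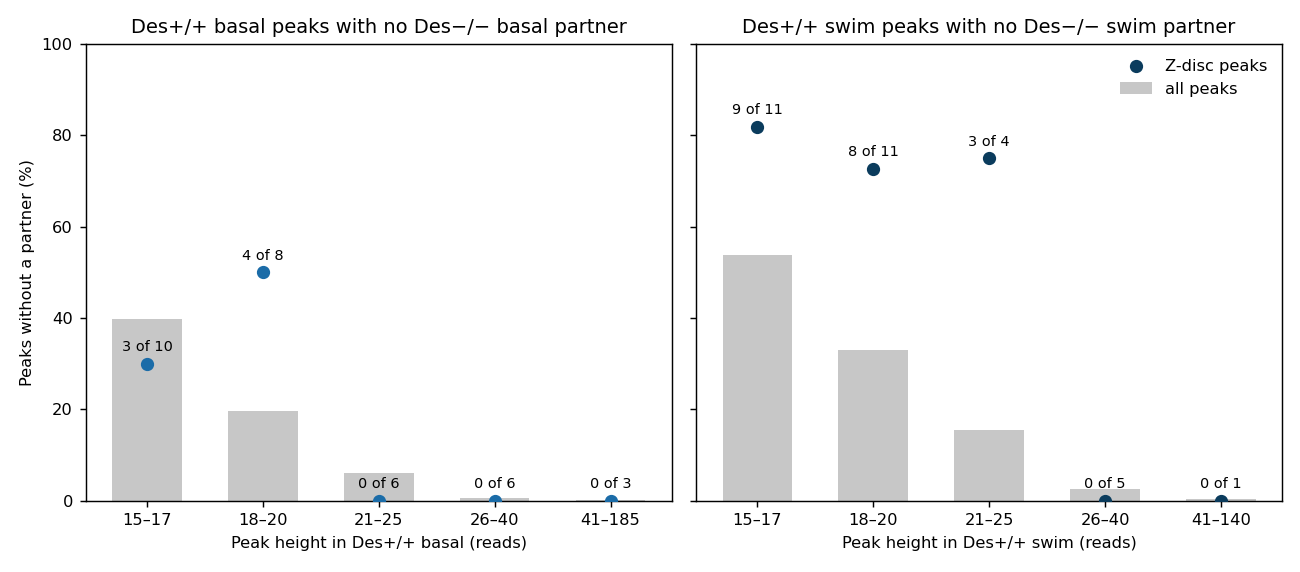
Percentage of Des+/+ peaks with no overlapping Des-/- peak (y axis, from 0) by peak height in reads (x axis), before (left) and after swimming (right), with grey bars for all peaks and points with counts for peaks of Z-disc genes. After swimming the points of the lower 3 height classes lie above the bars (9 of 11, 8 of 11 and 3 of 4), and at 26 reads and above no Z-disc peak lacks a partner. Before swimming the point at 18 to 20 reads (4 of 8) lies above its bar and the point at 15 to 17 reads (3 of 10) lies below.

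Between the swim and basal libraries of 1 genotype, 9 of 33 Z-disc peaks of Des+/+ basal had no Des+/+ swim partner, against 39.0% of all, and 9 of 32 Des+/+ swim peaks had no basal partner, against 8.39%. In Des-/-, 22 of 31 basal peaks had no swim partner, against 44.8%, and 0 of 12 swim peaks had no basal partner, against 6.28%. With equal numbers of highest peaks, basal peaks without a swim partner became 3 of 19 in Des+/+ (23.7% of all) and 4 of 13 in Des-/- (24.5%). The high count in Des-/- thus rested on low peaks of the longer basal list. Swim peaks without a basal partner became 10 of 27 in Des+/+ (16.8% of all) and stayed at 0 of 12 in Des-/- (17%). These comparisons share libraries with the comparisons of genotypes.

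At sites with a peak in both libraries, heights were compared after dividing by the median ratio of all shared sites, which was 1.11 for Des-/- over Des+/+ after swimming (7492 sites) and 1.06 before (12247 sites). All 10 Z-disc sites shared by the swim libraries had a scaled ratio below 1, with a median of 0.703 and a range of 0.579 to 0.978. At 3 of the 10 the scaled height was at least 1.5-fold lower in Des-/- swim, against 4.02% of all shared sites, and at 0 it was 1.5-fold higher, against 3.55%. The 3 were the promoters of Myoz2 (0.579, 95% interval 0.336 to 0.981), Csrp3 (0.591, 0.301 to 1.13) and Ldb3 (0.657, 0.371 to 1.15). The interval of Myoz2 was the only 1 of the 10 that did not include 1. The Pdlim5 promoter was nearest to the other sites, at 0.978.

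Before swimming, the 22 shared Z-disc sites had a median scaled ratio of 0.944. An intronic Ldb3 site (23 reads in Des+/+ and 15 in Des-/-) was at least 1.5-fold lower in Des-/- (3.11% of all sites), and an Actn2 peak 2.4 kb inside the gene (16 and 29 reads) was 1.5-fold higher (2.92%). Of the 9 sites listed in all 4 groups, Des-/- swim was the lowest library at 8, against 26.3% of 6899 such sites. These heights were unscaled. Each was the highest peak of a merged site, and at Flnc and Tcap the highest peaks lay at different summits.

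**Figure D4:**
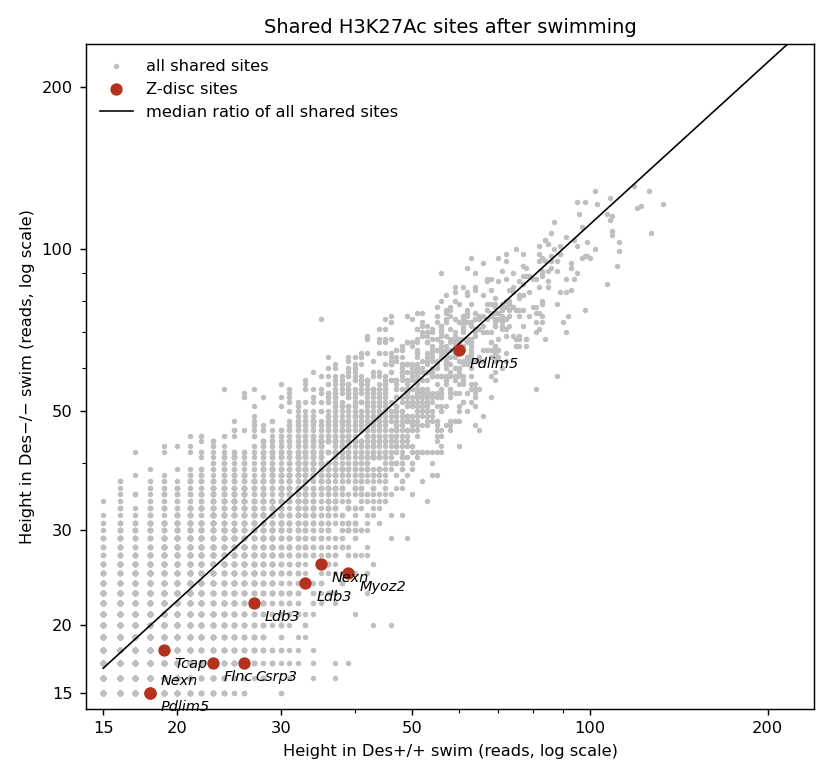
Height in Des+/+ swim (x axis, reads, log scale) against height in Des-/- swim (y axis, reads, log scale) at the 7492 H3K27Ac sites shared by the swim libraries, with all sites in grey, the 10 Z-disc sites in red and the line at the median ratio of 1.11. All 10 lie below the line, the Pdlim5 promoter closest to it, and 2 of them (Nexn and the distal Pdlim5 site, 18 and 15 reads) share a point.

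Over swimming in Des+/+, the 21 shared Z-disc sites had a median scaled ratio of 1.27 (log2 0.35), while their median unscaled log2 ratio was -0.09, since the median of all shared sites fell to 0.741 in the swim library. The direction thus depends on the scaling. At 4 sites, of Actn2, Flnc, Pdlim5 and Tcap, the scaled height was at least 1.5-fold higher after swimming (5.27% of all sites), and at 0 it was lower (3.86%). In Des-/-, the 9 shared sites had a median scaled ratio of 0.882, with 1 lower by 1.5-fold (3.03%), the Nexn promoter at 54 and 26 reads, and 0 higher (4.32%).

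Other sarcomere genes were read from lists set by where their proteins lie in the sarcomere. Of 69 Des+/+ swim peaks at 40 other Z-disc and Z-disc-associated genes, 55.1% had no Des-/- swim partner. The share was 50% of 12 peaks at 14 thick filament and M-band genes and 45.5% of 22 peaks at 13 thin filament genes. All 3 shares were above the 27% of all peaks, so a share above that of all peaks was also found at sarcomere genes other than the 9. At shared swim sites the median scaled ratio of Des-/- over Des+/+ was 0.903 at the other Z-disc genes (29 sites), 0.614 at the thick filament genes (7 sites) and 0.753 at the thin filament genes (11 sites). Peaks were fewer in Des-/- swim at 15 and more at 6 of the other Z-disc genes, fewer at 5 and more at 2 thick filament genes, and fewer at 6 and more at 0 thin filament genes. Of the 6 other Z-disc genes with the highest Des+/+ swim peaks, 4 were higher in desmin-null cells after swimming at unscaled heights. The median Des-/- over Des+/+ ratio of all shared swim sites was 1.11, a rise that Bag3 and Pdlim1 among the 4 did not reach. Bag3, a co-chaperone that clears damaged filamin, reached 86 reads in wild-type and 92 in desmin-null cells. The actin-capping protein subunits Capzb, Capza2 and Capza1 had 56 and 51, 42 and 51, and 37 and 54 reads. Myo18b, an unconventional myosin, had 30 and 20 reads, and Pdlim1, a PDZ and LIM domain protein, 30 and 33. Des itself, the deleted gene, still carried peaks, with highest heights of 30, 46, 24 and 37 reads, so the mark gives no check of the deletion.

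Genes with at least 3 peaks in Des+/+ swim numbered 832, of which 34 (4.09%) had none in Des-/- swim, as Actn2 did. By summed height in Des+/+ swim the others at the top were Fhod3, a formin that assembles cardiac actin filaments (4, 4, 6 and 0 peaks in the 4 groups), 5031425F14Rik (5, 4, 5 and 0), Shld1 (5, 5, 4 and 0), Nppb, which encodes brain natriuretic peptide (4, 4, 4 and 0), G530011O06Rik (3, 6, 3 and 0) and Mapre2 (2, 3, 4 and 0). The likeness is of peak counts over 4 libraries. In the other direction, 15 of the 688 genes with at least 3 peaks in Des-/- swim had none in Des+/+ swim.

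The input under the peaks and the markers of other cells moved with the swim comparison. Mean input height at Z-disc peaks was 2.03, 1.94, 2.12 and 3.92 reads in the 4 groups, and at all peaks 2.96, 2.8, 3.06 and 5.48. The Des-/- swim list held peaks of 15 reads at every input from 1 to 6 reads, and its lowest height was 17 at an input of 7. In a check, 2 reads, the difference of the median inputs (3 and 5), were added to the input of each Des+/+ swim peak. A peak passed if its Poisson p was no larger than the largest kept on its chromosome in the Des-/- swim list. All 32 Z-disc peaks passed, as did 95.5% of all Des+/+ swim peaks. Of those that passed, 20 of the 32 Z-disc peaks had no partner, against 26.1% of all. Inputs at these Z-disc peaks were only 1 to 5 reads, so few could fail this check. The part of the higher input in the result was not tested.

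Cardiomyocyte markers, of which 5 are also in the thick or thin filament lists, had peaks at 7 of 8 genes (Nppa at 0 in all groups), with 25, 17, 19 and 8 peaks and summed heights of 567, 420, 412 and 164 reads. Endothelial markers had peaks at 6 of 6 genes, with 21, 21, 16 and 20 peaks and summed heights of 595, 566, 383 and 500 reads. Of the Des+/+ swim peaks, 57.9% of the cardiomyocyte and 12.5% of the endothelial ones had no Des-/- swim partner, and median scaled ratios at shared swim sites were 0.733 and 0.973. Fibroblast markers had 1, 3, 0 and 0 peaks, and leukocyte markers and smooth muscle and pericyte markers had none. The part of endothelial chromatin in the result was not tested, and in these bulk samples a smaller share of cardiomyocytes and less acetylation per cardiomyocyte cannot be told apart.

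The lists held 188, 831, 635 and 536 lamin A/C peaks in the 4 groups, and 1 of these was assigned to a Z-disc gene. Of the 9 Z-disc genes 1 thus had a lamin A/C peak in any group, against 8.05% of the 11472 genes. Thick filament and M-band genes had 0, 2, 7 and 1 such peaks, thin filament genes 0, 3, 7 and 0, and the other Z-disc genes none. The Z-disc peak lay at Tcap, 9 reads high over an input of 2, in Des-/- basal (chromosome 11, 98384509 to 98384748), within the H3K27Ac site over the gene. Its 95% Poisson interval was 4.1 to 17.1 reads, and the lists keep lamin A/C heights of 8 or more. Inside the Myoz2 gene body, a lamin A/C peak of 8 reads in Des+/+ swim (chromosome 3, 123006411 to 123006624) was assigned to the neighbouring gene Usp53.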

How the data were processed

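ChIP-seq of H3K27Ac and lamin A/C was carried out in 4 groups with 8 precipitated libraries and 8 inputs. The authors aligned reads with Bowtie2 2.4.4 to GRCm38, used SAMtools 1.13, called peaks per library against its input, and annotated them with ChIPseeker 1.36.0. The deposited lists hold read pileup heights (signal) of ChIP and input, p-values with false discovery rates, a fold ratio of ChIP to input, and a distance to the gene start (score); the methods give a common nominal depth, and mapped totals per library were not used here. Heights and positions were used; p-values served only as the threshold when the input was raised.

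Peaks were taken by deposited gene symbol. A partner was a peak overlapping by at least 1 bp; peaks of the 4 lists were merged into sites where they overlapped. Ratios of heights were divided by the median ratio over all shared sites. Intervals were exact (Poisson for a height, binomial for a ratio; 95%). Overlap scripts were tested on simulated data. Promoters were from RefSeq. Python 3.11.15, pandas 2.3.3 and scipy 1.17.1 were used. Every Z-disc gene was named; of the other Z-disc genes the 6 with the highest Des+/+ swim peak, and of genes with the Actn2 pattern the 6 highest by summed Des+/+ swim height. Members, lists and alternatives were chosen with earlier results of these data known.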

Additional observations from a re-analysis of the deposited data

Results flagged for a closer look

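At 2 sites listed in all groups the scaled height ratio of Des-/- over Des+/+ was above 1 before swimming and below 1 after it. At the Ldb3 promoter peak downstream of the start the swim log2 ratio minus the basal one was -0.55, from 0.10 (29 and 33 reads) to -0.44 (27 and 22 reads). At the distal Pdlim5 site it was -0.50, from 0.09 (23 and 26 reads) to -0.41 (18 and 15 reads). The intervals of these ratios, before and after swimming, included 1. The difference was not particular to these sites: it was -0.68 at the Csrp3 and -0.56 at the Myoz2 promoter. It was -0.37 to -0.47 at the upstream Ldb3, Nexn, Flnc and Tcap sites, and 0.02 at the Pdlim5 promoter. With 1 library per group the difference was not tested.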

How the results depend on the processing

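Of 95 alternatives, 55 left a result unmoved, 39 moved it and 1 reversed it. With a minimum of 20 reads the Z-disc H3K27Ac peaks numbered 16, 13, 12 and 5 in Des+/+ basal, Des-/- basal, Des+/+ swim and Des-/- swim; with equal numbers of highest peaks they were 19, 13, 27 and 12. The 17 sites listed in Des+/+ but not Des-/- swim became 4 at 20 reads or more and 0 at 30 or more. The 20 Des+/+ swim peaks without a Des-/- partner became 5, of 12 Z-disc peaks, at 20 reads or more and 0 at 30 or more. Under the other alternatives they stayed within 1.5-fold. The Des-/- swim peaks without a Des+/+ partner were 2 with an overlap of 50% of the shorter peak and 0 with a partner allowed within 1 kb, or at 20 or 30 reads. Promoter peaks in this section are those within 3 kb of an annotated start. Des+/+ basal peaks without a Des-/- partner were 4 with a partner within 1 kb, 4 among promoter peaks and 0 at 20 or 30 reads. The reverse were 2, 3 and 0, and 2 with equal numbers. Des+/+ basal peaks without a swim partner were 1 at 20 reads, 0 at 30, 3 with equal numbers and 5 among promoter peaks; the reverse were 4 with a partner within 1 kb, 0 at 20 or 30 reads and 5 among promoter peaks. Des-/- basal peaks without a swim partner were 4 at 20 reads, 0 at 30 and 4 with equal numbers. Fewer peaks enter at each of these minimums, and the share of all peaks without a partner also falls with height. Apart from equal numbers, no share over all peaks is given for the counts above. They therefore cannot be set against other genes. Unscaled, the median log2 height ratio was -0.36 for Des-/- over Des+/+ swim, -0.09 (reversed) for Des+/+ swim over basal and -0.58 for Des-/- swim over basal. The lamin A/C peak was lost (0) at 10 reads or with equal numbers, and by gene body Des+/+ swim held 1. Raising the input was chosen after seeing the data and left 20 of 32 peaks without a partner, against 26.1% of all Des+/+ swim peaks that passed. No paired analysis was possible because each group has 1 library and the labels carry no replicate numbers.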
